A study of Mus musculus with 16 samples.

Results

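The db/db+E wounds were compared between the labelled days by setting the 2 arrays titled day 14 against the 2 titled day 7, which are 4 of the 16 arrays of the series. The arrays were taken by their titles. The db/db+E group consisted of diabetic females of 10 weeks on the strain C57BLKS/J Iar-+Lepr db/+Lepr db, which lack a working leptin receptor and become obese, and their wounds received estradiol benzoate daily at 0.75 μg/g/day in sesame oil. In the db/db+vehicle group the oil was given without the hormone, the db/db group had neither, and the WT group consisted of female C57BL/6J mice of 10 to 12 weeks. Wounds of 4 mm were made on the back into the panniculus carnosus, a sheet of skeletal muscle under the skin, and RNA was taken from the whole wound with the intact skin around it, so that fewer cells of a type and less RNA per cell cannot be told apart. The labels do not tie the arrays to single animals. The p-values rest on the spread between arrays of the same group, pooled over all 8 groups of the series, and not on that of the 4 db/db+E arrays alone.

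All arrays labelled day 7 were scanned on 1 day and all arrays labelled day 14 on another, on slides of their own, so that labelled day and scan day cannot be told apart. The labelled days are also in doubt. Of 40 printed single-gene fold changes of db/db+E over db/db, 39 lay within 1% of the value from the arrays labelled with the other day, 0 lay within 1% of the value from the arrays labelled with the printed day, and 1 had no probe. Which of the days is right was not settled, and if the labels are exchanged, every direction given here turns with them. A gene is therefore said to have risen or fallen only from labelled day 7 to labelled day 14.

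A skin wound first fills with neutrophils and macrophages, which are called in by chemokines and cytokines. Keratinocytes at its edge then switch to an activated state, with the keratins Krt6, Krt16 and Krt17 and with small proline-rich (Sprr) and late cornified envelope 3 (Lce3) proteins, and migrate over granulation tissue that carries new vessels and collagen. Once the surface is closed, these genes return to low levels and the normal barrier is rebuilt, while hair follicles in the surrounding skin pass through their own cycle of growth and rest. Estrogen receptors act in keratinocytes, fibroblasts and macrophages, and Pgr and Greb1 are classical targets of theirs.

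Levels are given as log2 of the processed signal relative to the 75th percentile of the array, which ran from 1091 to 2548 over the 16 arrays. The share of probes well above background, by the scanner software's flag, was 70.1% to 79.0%, and no spot was saturated. The epidermal keratin Krt5 was at 7.11 to 7.72 on the 4 db/db+E arrays and the dermal collagen Col1a1 at 6.38 to 6.71. Pgr, the progesterone receptor, was at −1.40 and −1.09 on the day 7 arrays and at −1.31 and −0.63 on the day 14 arrays, against at most −1.53 on the 12 arrays of the other groups. Greb1 was at 2.77 and 2.90, and at 2.01 and 2.33, against at most 1.87 elsewhere. Both targets of the estrogen receptor were thus above every array without estrogen on both labelled days, and neither passed the test between the days (adjusted p = 0.619 and 0.410). The day 14 arrays were less alike than the day 7 arrays, with a correlation across the tested probes of 0.978 against 0.994. Skeletal muscle differed between them: Myl1, a fast muscle myosin light chain, was at 3.97 on replicate 1 and 7.01 on replicate 2, against 7.24 and 7.10 on day 7, and the slow muscle myosin Myh7 was at −4.37 and 5.84. The summed level of the 30 fast muscle genes was 253 and 2115 on the day 14 arrays, and 1551 and 1523 on the day 7 arrays.

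Between the labelled days, 607 probes (2.04%) rose and 1993 (6.7%) fell among 29737 tested, with a Benjamini-Hochberg adjusted p below 0.05 in limma's moderated test and a fold change above 2. These were 8.74% of the probes. At an unadjusted p below 0.05 and the same fold change there were 914 (3.07%) and 3247 (10.9%). Read through 1 probe for each of 16930 named genes, 2.68% rose and 4.4% fell, which is the background for the counts of list members below. Rises and falls differed in level. In the dimmest of 4 equal bins of mean level the median log2 difference was −0.51, with 101 probes risen and 1015 fallen, and in the brightest bin it was 0.12, with 229 risen and 69 fallen. The size of the imbalance depended on the scaling. The median of all probes was −0.12, and 23.3% of the called probes had risen. After quantile normalization the median was 0.01, with 747 risen and 937 fallen, or 44.4% risen. Probes without a gene symbol were 7583 of the 29737 tested, 890 of the 1993 that fell and 95 of the 607 that rose, which is a larger share of the falls and a smaller share of the rises than of the probes tested.

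**Figure D1:**
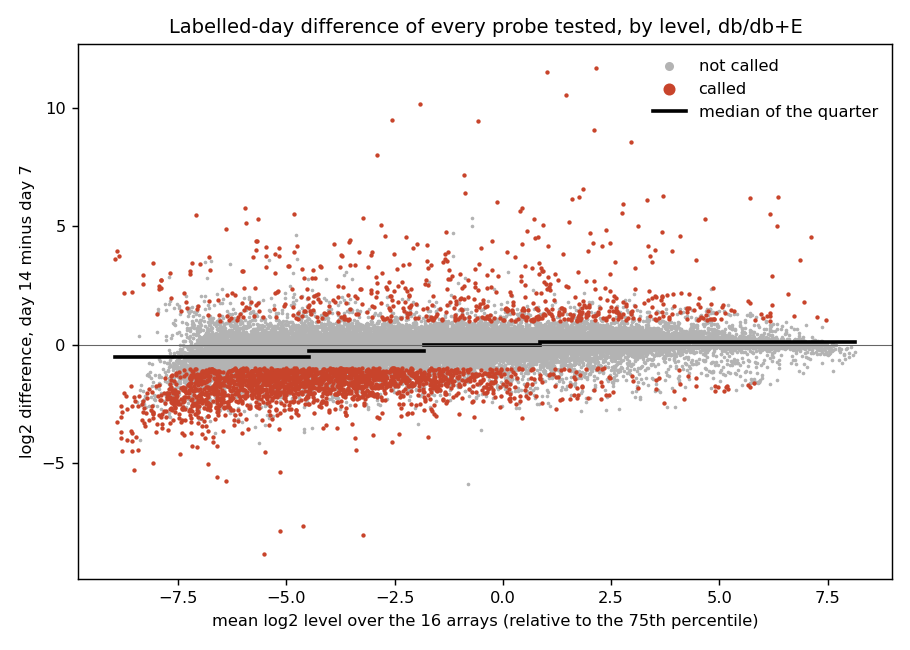
Log2 difference between the labelled days in db/db+E (day 14 minus day 7) for each of the 29737 probes tested, against the mean log2 level over the 16 arrays; red points passed the call and black bars are the medians of 4 equal bins of level. The falls gather among dim probes, where the median of the bin is −0.51, and the median of the brightest bin is 0.12.

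Many of the falls were shared with the other db/db groups. Of the 1993 fallen probes, 978 (49.1%) also fell between the labelled days in db/db+vehicle, which is 48.3% of the 2023 that fell there (6.75% of the probes tested), and 1011 (50.7%) fell in db/db, which is 41.2% of the 2453 that fell there (8.34%). Of the 607 risen probes 38 (6.26%) rose in db/db+vehicle, of 404 there (1.35% of the probes tested), and 63 (10.4%) rose in db/db, of 220 there (0.748%). In WT 3 probes rose (0.00995%) and 2 fell (0.00664%), and at an unadjusted p below 0.05 and the same fold change there were 592 (1.96%) and 737 (2.45%). These groups share no arrays but share the scan days. On day 7 each slide held an array of every group. On day 14 both db/db arrays were on a single slide and both WT arrays on the other, while db/db+E and db/db+vehicle had an array on each. The parts of the scan day and of the slide in the common falls were not tested.

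The largest rises were those of the Sprr and Lce3 genes, which encode cross-linked proteins of the envelope of cornified cells and are switched on in wounded and inflamed epidermis. Of 16 such genes tested, 15 rose, and the median log2 difference of the list was 7.16, which ran from 5.75 to 7.96 over the alternatives. Members that passed the filter through day 14 alone, given below, enter this count and median with their dim day 7 signals as measured. Sprr2e was at −3.74 and −4.04 on the day 7 arrays and at 4.68 ± 1.04 (mean and SD, n = 2) on the day 14 arrays, the lower of which was at 3.94, a 379-fold rise (log2 8.57, SE 0.67, adjusted p = 0.000752). Sprr2g was at −5.28 and −5.58, and at 4.58 and 2.70, a 539-fold rise with an adjusted p of 0.00103. Sprr2d was at −0.01 and 1.66, and at 7.50 and 6.54, a 73.3-fold rise. The genes with the largest differences were chosen without overlap between the days, so that a gap between their arrays is no further evidence.

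Sprr2i, Sprr2f and Lce3a were not well above background on either day 7 array and were bright on both day 14 arrays. Set against the lowest signal that counts as well above background, Sprr2i was at least 3235-fold higher on day 14, Sprr2f at least 1211-fold and Lce3a at least 1042-fold. Sprr2k was at least 246-fold higher and Sprr2b at least 70.7-fold by the same reckoning. All of these genes passed the filter through day 14 alone, so that their direction is in part set by the filter. Sprr1a and Sprr1b, of the same family, rose 13.5-fold and 79.1-fold. Lce3b rose 61.3-fold, from −2.07 and −2.93 to 4.55 and 2.32. Sprr2a2, the one member that was not called, was read through a bright probe that stood at 6.74 to 6.89 on all 4 arrays, while another of its 3 probes went from 4.09 and 3.51 to 7.34 and 6.05. Probes of the Sprr2 genes can share transcripts of near-identical copies, so that values of single members are uncertain.

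The 250 bases before the start of 4 members of the Sprr2 cluster, which lies on chromosome 3, show what these genes share in sequence (RefSeq, GRCm38.p6). All 4 lie on the plus strand, Sprr2e at chr3:92351893-92352142, Sprr2d at chr3:92338890-92339139, Sprr2i at chr3:92407741-92407990 and Sprr2f at chr3:92364937-92365186. Capitals mark the AP-1 motif TGANTCA, the first in each line, and the TATA box TATAAA, the second.
Sprr2e: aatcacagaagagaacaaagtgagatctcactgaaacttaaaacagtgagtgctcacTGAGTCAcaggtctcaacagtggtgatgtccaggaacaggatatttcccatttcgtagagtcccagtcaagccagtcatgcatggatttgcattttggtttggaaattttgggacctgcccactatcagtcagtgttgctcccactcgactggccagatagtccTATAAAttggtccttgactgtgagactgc
Sprr2d: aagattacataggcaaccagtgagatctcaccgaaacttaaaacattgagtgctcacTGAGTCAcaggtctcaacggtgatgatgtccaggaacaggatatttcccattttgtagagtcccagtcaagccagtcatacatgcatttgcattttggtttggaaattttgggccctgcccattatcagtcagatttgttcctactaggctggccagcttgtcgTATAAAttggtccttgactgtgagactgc
Sprr2i: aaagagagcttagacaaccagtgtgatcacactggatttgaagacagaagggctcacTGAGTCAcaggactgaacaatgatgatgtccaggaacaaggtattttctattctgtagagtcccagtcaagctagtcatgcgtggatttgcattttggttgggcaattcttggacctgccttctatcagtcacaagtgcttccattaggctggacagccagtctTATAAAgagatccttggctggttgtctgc
Sprr2f: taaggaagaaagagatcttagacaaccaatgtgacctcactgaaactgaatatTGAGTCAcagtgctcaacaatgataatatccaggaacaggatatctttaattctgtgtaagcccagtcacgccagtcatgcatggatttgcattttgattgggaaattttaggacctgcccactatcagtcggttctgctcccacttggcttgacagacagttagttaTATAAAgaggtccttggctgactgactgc
The AP-1 motif ended 187 bases before the start in Sprr2e, Sprr2d and Sprr2i and 191 bases before it in Sprr2f, and the TATA box ended 24 bases before it in all 4. On either strand of these windows, TGANTCA was found in 9 of the 14 listed Sprr and Lce3 genes with a promoter in the table (64.3%), against 7.82% of all 27025 genes, and TATAAA in 10 of 14 (71.4%) against 14.3%. The cluster arose by duplication, so that its promoters are not independent, and a match is a run of letters, not a measured site. Lce3a, which moved as the Sprr2 genes did, held neither motif in its window.

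Other genes of the activated keratinocyte moved with them, 21 of 37 rising and 0 falling, with a median of 2.04. Krt6b, a keratin of migrating keratinocytes, was at 0.49 and 2.00 on day 7 and at 7.81 and 7.14 on day 14, a 75.1-fold rise (SE 0.53 on the log2 scale, adjusted p = 0.000891), while a second probe gave a log2 difference of 3.96. Krt16, its usual partner, rose 11.8-fold, from 3.85 ± 0.21 (SD, n = 2) to 7.42 ± 0.36 (adjusted p = 0.00179). Krt6a rose 15.9-fold and Krt17 3.34-fold. S100a8 and S100a9, the calcium-binding pair made by activated keratinocytes and by neutrophils, rose 32.4-fold and 23.3-fold, S100a8 from 0.92 and 2.69 to 6.94 and 6.70. The gap junction genes Gjb2 and Gjb6 rose 24.1-fold and 18.0-fold. The antimicrobial Defb3 was not well above background on day 7 and was at least 160-fold higher on day 14, and Slpi, an inhibitor of neutrophil elastase, rose by 3.59 on the log2 scale. The growth factor Areg rose 6.79-fold.

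These counts rested on all 4 arrays to different degrees. Without any 1 of the db/db+E arrays, 13 to 15 of the Sprr and Lce3 genes still rose, while the count of activated keratinocyte genes that rose was between 8 and 21, the lowest without day 7 replicate 2 and 10 without day 7 replicate 1 or day 14 replicate 1.

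**Figure D2:**
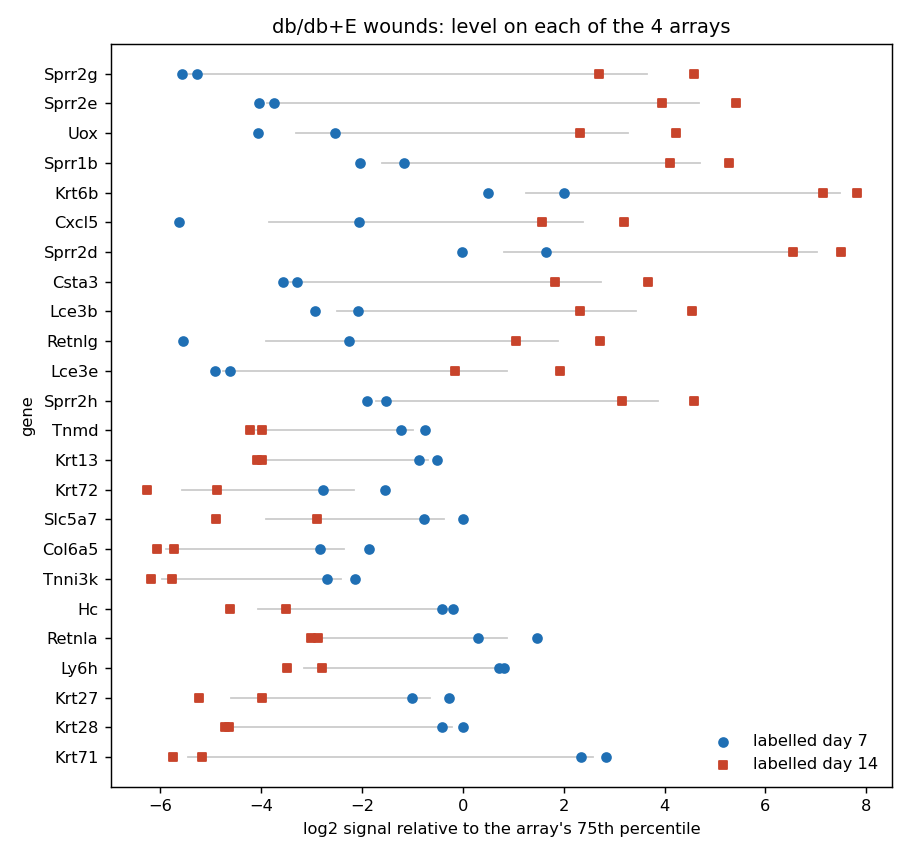
Log2 level of 24 genes on each of the 4 db/db+E arrays (circles, labelled day 7; squares, labelled day 14; grey lines join the means): the 12 with the largest rise and the 12 with the largest fall among called genes well above background on all 4 arrays. No gene's squares overlap its circles, by the rule that chose the genes, and Sprr2g and Krt71 mark the ends.

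Epidermal genes outside this programme behaved otherwise. Of 35 barrier genes 1 rose and 1 fell, with a median of −1.22 that ran from −2.29 to 0.02 over the alternatives, and of 12 basal keratinocyte genes none was called (median −0.13; 1 was lower at an unadjusted p below 0.05). Loricrin (Lor), the main protein of the cornified envelope in intact skin, was at 7.63 and 7.17 on day 7 and at 7.38 and 5.74 on day 14 (adjusted p = 0.501). Krt10 of the suprabasal layers was at 6.83 and 5.95, and at 6.52 and 3.13 (adjusted p = 0.352). Krt2, a keratin of the upper layers, fell 5.05-fold by its brighter probe, from −0.69 and −2.16 to −3.60 and −3.92, and by at least 157-fold by another. Rptn, the called rise of the list, encodes repetin of the granular layer and rose by 3.24 on the log2 scale (adjusted p = 0.0355). The fall of Krt2 by its brighter probe was called without day 7 replicate 2 but not without any of the other 3 arrays, and the rise of Rptn was called only without day 14 replicate 2. Day 14 replicate 2 had the lowest median of the barrier list among the 4 arrays, 0.81 against 2.73, 2.94 and 2.22.

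Inflammatory signals were higher on day 14. Of 33 listed genes 19 rose and none fell, with a median of 2.19. The neutrophil chemokine Cxcl5 was at −5.63 and −2.07 on day 7 and at 3.19 and 1.58 on day 14, a rise of 6.23 on the log2 scale (SE 1.15, adjusted p = 0.00998). Il1b, a cytokine that starts inflammation, rose 14.1-fold from −4.55 and −0.99 to 1.95 and 0.15, and Il6 rose 14.9-fold. The acute phase genes Saa3 and Saa1 rose 45.4-fold and 39.4-fold, and Nos2, the inducible nitric oxide synthase, rose by 5.20 on the log2 scale, from −2.59 and −2.42 to 3.78 and 1.62. Ptgs2, which makes prostaglandins, rose 11.7-fold. Tnf was at −2.37 and −3.52 on day 7 and at −1.94 and −2.98 on day 14, and Il10 at −4.20 and −4.05, and −4.55 and −4.47. Neither of these passed the test (adjusted p = 0.505 and 0.198).

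Neutrophil genes followed, with 16 of 32 risen, 1 fallen and a median of 2.03. Retnlg rose 55.5-fold from −5.55 and −2.26 to 2.73 and 1.05 (SE 1.54, adjusted p = 0.0343). Fpr1, the receptor for bacterial peptides, rose 21.0-fold, Mmp8, the neutrophil collagenase, 14.3-fold and Clec4e 11.1-fold. Stfa2l1, a stefin A gene, rose 28.9-fold from −2.35 and −1.82 to 3.82 and 1.72. Of 2 granule genes of immature neutrophils, neither passed the test: Elane was at −0.44 and −0.42, and at 0.34 and 0.11 (adjusted p = 0.127), and Camp at −3.69 ± 0.41 and −3.39 ± 0.79 (adjusted p = 0.827). Il1r2, the decoy receptor for interleukin 1, fell 3.31-fold. On both lists the day 7 arrays differed, replicate 1 being the lower for Il1b, Il6, Cxcl5 and Retnlg, and day 14 replicate 1 was the higher of its pair for the same genes. Without day 14 replicate 1, 5 inflammatory and 5 neutrophil genes rose, and without day 7 replicate 1, 4 of each.

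Macrophage genes as a whole stood near the same level on both labelled days, with 2 of 27 risen and a median of 0.20. Adgre1, the F4/80 antigen, was at 3.23 and 3.16, and at 3.20 and 3.26, and Csf1r at 5.89 and 6.11, and at 5.73 and 5.97. Marco, a scavenger receptor for bacteria, rose 13.1-fold from −1.96 and −2.15 to 2.12 and 1.20, and Cd14 was the other gene that rose. Genes of alternatively activated macrophages split, with 5 of 24 risen and 3 fallen. Arg1, which breaks down arginine, rose 18.1-fold from −0.21 and −0.23 to 4.84 and 3.09 (adjusted p = 0.00222), and Chil3 rose 7.97-fold. Retnla, a secreted product of such macrophages and of fat, fell 14.2-fold from 0.29 and 1.48 to −2.88 and −3.01 (adjusted p = 0.00705). Cd209a and Cd209c, lectins of resident dermal macrophages, fell 4.64-fold and 6.75-fold. Mrc1, the mannose receptor, was at 3.89 and 4.37, and at 3.95 and 4.03 (adjusted p = 0.878). Without 1 of the db/db+E arrays, 1 to 3 of the alternatively activated genes rose and 0 to 2 fell, the fewest rises without day 7 replicate 1 or day 14 replicate 1 and no fall without day 7 replicate 2. No gene of the macrophage list was called without day 7 replicate 1, day 7 replicate 2 or day 14 replicate 1.

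Among other immune genes, the 51 interferon genes held none that was called, at either threshold, and their median was 0.03. No gene of 11 B cell genes or 13 genes of antigen presentation was called (medians −0.55 and −0.79; 1 and 4 were lower at an unadjusted p below 0.05). Of 11 mast cell genes 4 fell, among them the tryptase Tpsb2, 2.56-fold from 2.03 and 2.15 to 0.59 and 0.89, and none was called without any 1 of the db/db+E arrays. Of 26 T and NK cell genes, Gzme rose 14.4-fold, and Cd8a, not well above background on day 14, fell by at least 2.40-fold, a call that was lost without any 1 array. Gzmn, a granzyme outside that list, was chosen for its difference from the other groups, given below. It was not well above background on day 7 (−9.11 and −8.97) and was at −2.91 and −3.61 on day 14, at least 15.5-fold higher (adjusted p = 4.68e-05).

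Hair follicle genes held the largest fall of a single gene well above background on all 4 arrays. Of 14 genes of the inner root sheath, which moulds the growing hair, 7 fell and 1 rose, with a median of −1.77. Krt71 was at 2.34 and 2.84 on day 7 and at −5.75 and −5.17 on day 14, a 265-fold fall (SE 1.59 on the log2 scale, adjusted p = 0.0126). Krt28 fell 22.1-fold and Krt27 15.6-fold. Krt25 also fell (adjusted p = 0.00882), from 1.20 ± 0.29 to −6.70 ± 0.75, and since 1 of the 2 day 14 arrays was not well above background no fold change is given. The list's only rise was that of Tchhl1, which encodes a relative of trichohyalin, by 3.55 on the log2 scale. Of 47 hair shaft genes, the keratins and keratin-associated proteins of the fibre, 24 fell and none rose, with a median of −1.40, and Krt35 fell from 0.18 and 0.54 to −6.87 and −7.80 (adjusted p = 0.00452), likewise with 1 day 14 array not well above background. Of these 47 genes 27 lay in the dimmest bin of level, where the median of all probes was −0.51. Of 63 hair shaft genes with a probe only these 47 passed the filter, which a gene can do through day 7 alone. For a gene that passed in this way, the direction is in part set by the filter.

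The upstream window of Krt71, the gene with the largest fall among those well above background on all 4 arrays, is shown beside those of the Sprr2 genes (chr15:101743098-101743347, minus strand, GRCm38.p6), with its TATAAA in capitals. It held no TGANTCA.
Krt71: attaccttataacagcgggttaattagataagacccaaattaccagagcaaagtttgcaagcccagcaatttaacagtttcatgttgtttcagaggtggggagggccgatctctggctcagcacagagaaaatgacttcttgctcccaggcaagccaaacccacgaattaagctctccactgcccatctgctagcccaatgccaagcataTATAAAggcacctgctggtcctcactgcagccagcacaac
TATAAA was found in 34 of 41 hair shaft genes (82.9%) and in 7 of 13 inner root sheath genes (53.8%), against 14.3% of all genes. Keratins and keratin-associated proteins form gene families, so that these promoters are not independent either. Among other lists, TATAAA was in 10 of 23 inflammatory genes (43.5%) and in 0 of 36 cell cycle genes. TGANTCA was found in 8 of the 41 (19.5%) and in 1 of the 13 (7.69%), against 7.82% of all genes.

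Of 26 follicle growth genes, by which regulators and stem cell genes of the hair follicle are meant, 6 fell and none rose, with a median of −0.86. At an unadjusted p below 0.05 in limma and the same fold change, 1 was higher. Lgr5, a marker of follicle stem cells, was at −0.68 ± 0.09 (SD, n = 2) on day 7 and at −2.79 ± 0.30 on day 14, a 4.31-fold fall (adjusted p = 0.00376). Gli1, the readout of hedgehog signals, fell 5.77-fold from −0.77 and −0.55 to −3.46 and −2.91, and Lhx2 fell 4.68-fold. Of 15 melanocyte genes 4 fell, among them Mlana 6.53-fold, with a median of −1.53, and at most 1 was called without any 1 array. Without any 1 of the 4 arrays, the called falls came to 8 to 15 of the hair shaft, 0 to 2 of the inner root sheath and 1 to 6 of the follicle growth genes. Without day 7 replicate 1 or 2, no inner root sheath gene fell. Elsewhere Krt71 differed widely between replicates, with an SD of 3.68 on the WT arrays of day 7 and 3.21 on those of db/db+vehicle.

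In genes of granulation tissue the differences were smaller. Of 30 vessel genes 9 rose and 1 fell, with a median of 0.57. Apln, made by sprouting endothelium, rose 9.28-fold from −3.48 and −3.89 to 0.12 and −1.06, Esm1, a tip cell gene, rose 7.86-fold and Vegfa, their main growth factor, 2.41-fold. Pecam1, a marker of all endothelium, was at −1.54 and −1.50, and at −1.31 and −1.07 (adjusted p = 0.360). Mmrn1, of lymphatic endothelium, fell 5.58-fold from 0.38 and −0.13 to −2.66 and −2.06, and Prox1, which defines that lineage, was well above background on day 7 alone and was not called (adjusted p = 0.168). Of 33 collagen and matrix genes 4 rose, among them fibronectin (Fn1, 3.60-fold) and tenascin C (Tnc, 4.61-fold), while Col1a1 was at 6.64 and 6.38, and at 6.59 and 6.71 (adjusted p = 0.776). Of the protease genes, the inhibitor Timp1 rose 3.97-fold, and Timp3 fell 4.40-fold from 4.22 on both arrays to 2.08 ± 0.40. Without day 7 replicate 1 or 2, 2 vessel genes rose, and no collagen or matrix gene rose without either of these or without day 14 replicate 1.

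Genes of glycolysis and hypoxia rose in 9 of 26 cases and fell in none, with a median of 0.96. The lactate transporter Slc16a3 rose 4.02-fold from 2.16 and 2.05 to 4.44 and 3.78, hexokinase Hk2 2.64-fold, and the oxygen sensor Egln3 6.46-fold. All 42 cell cycle genes were higher on day 14, 7 of them called, with a median of 0.62. Plk1, a mitotic kinase, rose 2.44-fold from 0.48 and −0.08 to 1.56 and 1.42, and Cdk1 rose 2.24-fold, although its 3 probes ranged from −1.32 to 1.29. Mki67 was at 2.29 and 1.59, and at 2.65 and 2.42 (adjusted p = 0.181). Whichever db/db+E array was left out, most calls of the cell cycle list were lost, and all of them without day 7 replicate 2 or day 14 replicate 1. Without either of these arrays most calls of the glycolysis list were lost too.

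All 29 adipocyte genes were lower on day 14, of which 6 were called, with a median of −1.26. Lep, the hormone leptin, fell 8.10-fold from 0.41 and 1.49 to −1.33 and −2.80 (adjusted p = 0.0436), and Lpl, which takes up lipid, fell 3.23-fold from 5.98 and 6.21 to 4.32 and 4.49. Adipoq was at 2.21 and 3.57, and at 1.04 and 1.70 (adjusted p = 0.222). No adipocyte gene fell without day 7 replicate 2, and 1 fell without day 7 replicate 1 or day 14 replicate 1. Of 9 major urinary protein genes, pheromone carriers that the skin also makes, 8 fell, with a median of −2.40. Mup20 went from −1.05 and −0.17 to −3.44 and −3.35, and the members share near-identical transcripts, so that they are not separate measurements. None of the 8 was called without any 1 of the arrays.

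Of 18 circadian genes 2 rose and 6 fell. Dbp, an output gene of the clock, fell 4.43-fold from 3.83 and 3.82 to 1.38 and 1.97, Hlf fell 6.93-fold and Per3 5.26-fold, and their opponent Nfil3 rose 3.18-fold from 0.55 and 1.06 to 2.46 and 2.48. Without day 7 replicate 1, day 7 replicate 2 or day 14 replicate 1, 2 genes fell and 1 or 2 rose. The hour of harvest is not given in the sources used here. Of 21 genes of the estrogen response 2 rose and 2 fell, and without any of the same 3 arrays 1 rose and none fell. Ramp3, a receptor partner induced by estrogen, was at 2.32 and 1.77 on day 7 and at −0.21 and 0.23 on day 14, a 4.10-fold fall (adjusted p = 0.0140), against −1.46 to 0.24 in the other groups. The receptor Esr1 was at −2.10 and −1.85, and at −2.04 and −1.34 (adjusted p = 0.619).

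**Figure D3:**
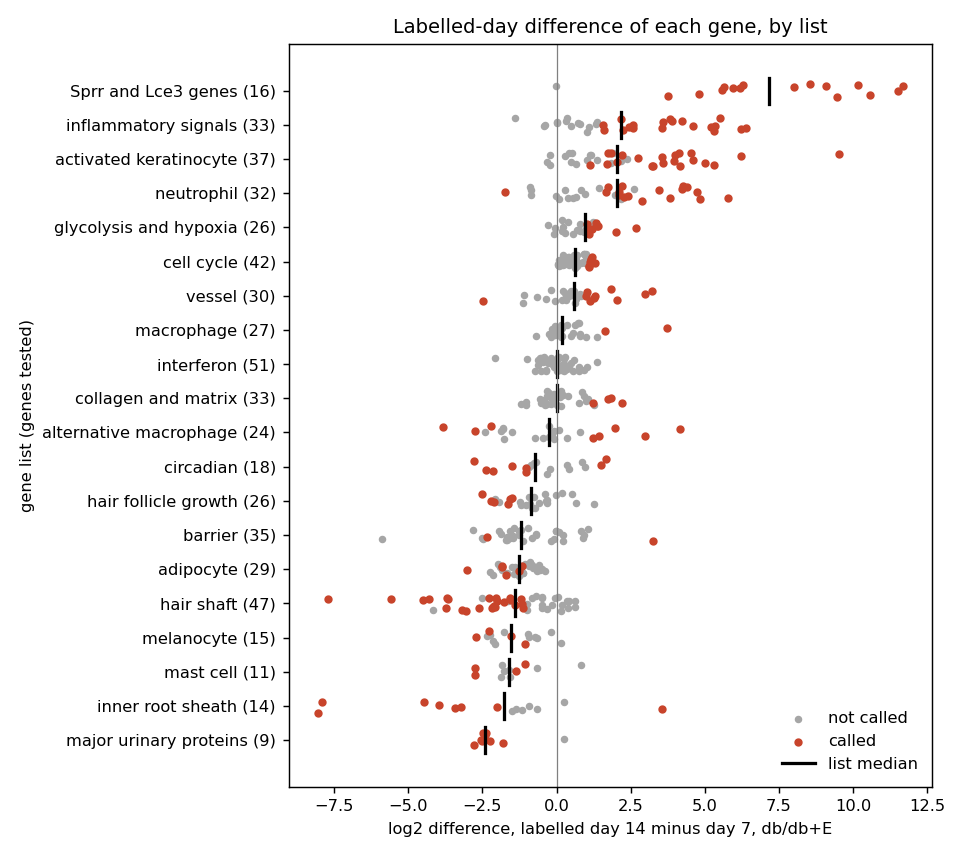
Log2 difference between the labelled days (day 14 minus day 7) in db/db+E for each gene of 20 lists, with called genes in red, other genes in grey and the median of each list as a black bar; the number tested is in brackets. The Sprr and Lce3 list has a median of 7.16, 3 lists of activated keratinocytes and inflammation lie near 2, and the follicle, mast cell and fat lists lie below 0.

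The next question was whether db/db+E changed between the labelled days differently from the other groups. An effect of the scan day that is the same in all groups cancels in this comparison. An effect of the slide need not cancel against db/db or WT, since each had its day 14 arrays on a single slide. The day difference of db/db+E was above that of db/db+vehicle for 16 probes and below it for 16, of 30558 tested (0.105% in all), with adjusted p-values from 0.00357 to 0.0488. Against db/db there were 38 and 9 probes of 30357 (0.155%), and against WT 26 and 32 of 30843 (0.188%). At an unadjusted p below 0.05 and the same fold change, the counts against db/db+vehicle were 999 (3.27%) above and 1238 (4.05%) below, against db/db 1193 (3.93%) and 749 (2.47%), and against WT 542 (1.76%) and 1813 (5.88%). These comparisons share the db/db+E arrays and are not independent of each other. With the slide as a fixed block in limma, 39 probes were called against db/db+vehicle, 0 against db/db (2481 unadjusted) and 1 against WT (2264 unadjusted). The part of the slide in these differences was not tested further.

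In 14 probes the difference was called against all 3 groups. They were those of Sprr2b, Sprr2e, Sprr2f, Sprr2g, Sprr2i, Lce3a, Defb3, Krt6b, S100a8 and Gzmn, which rose more in db/db+E, those of Lgr5, Tnni3k and Jazf1, which fell more, and 1 without a symbol. The second probe of Krt6b was called against none of the groups. Its differences were 3.38 against db/db+vehicle, 3.85 against db/db and 2.60 against WT (log2, adjusted p = 0.221, 0.178 and 0.313 in limma). The values on the single arrays show where the contrast came from. Sprr2e was at −3.74 and −4.04 on the db/db+E arrays of day 7 and between 2.11 and 5.74 on the 12 arrays of the other groups, and the db/db+E arrays of day 14 lay inside that range. Its day difference was 0.45 in db/db+vehicle, 0.59 in db/db and 0.39 in WT, and the excess over db/db+vehicle was 8.12 (log2, adjusted p = 0.0434).

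Krt6b was likewise at 0.49 and 2.00 on the db/db+E arrays of day 7 and between 6.21 and 7.78 on the other groups' arrays, and S100a8 at 0.92 and 2.69 against 6.26 to 7.61. Krt16, called against db/db+vehicle and db/db, was at 3.85 ± 0.21 against 6.09 to 8.01. For these genes the day 7 arrays of db/db+E were the lowest of the series, and its day 14 arrays lay within or close to the range of the other groups. The median level of the Sprr and Lce3 list was −4.18 and −4.48 on the day 7 arrays of db/db+E and between 1.42 and 4.94 on the arrays of the other groups. The medians of the inflammatory list, −4.20 and −2.42, overlapped the other groups, whose arrays ran from −3.09 to 2.06.

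Tnni3k, a kinase best known from heart muscle, showed the opposite. It was at −2.13 and −2.69 on the db/db+E arrays of day 7, at −6.18 and −5.77 on those of day 14, and between −6.04 and −4.67 in the other groups. Retnla was at 0.29 and 1.48 on the db/db+E arrays of day 7, above every array of the other groups, whose highest mean was −1.91 ± 1.29 in db/db+vehicle on day 14. Its day difference was 2.44 in db/db+vehicle and −3.83 in db/db+E, a difference between them of −6.27 (adjusted p = 0.0488). Lgr5 differed in another way, since its db/db+E arrays of day 7 lay within the other groups and those of day 14 were near their low end (−3.10 to 0.93). Gzmn was not well above background in WT on either day, was at −4.03 ± 0.53 and −3.55 ± 0.01 in db/db+vehicle and at −5.86 ± 0.40 and −3.76 ± 0.09 in db/db on days 7 and 14, against −9.04 ± 0.10 and −3.26 ± 0.49 in db/db+E.

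**Figure D4:**
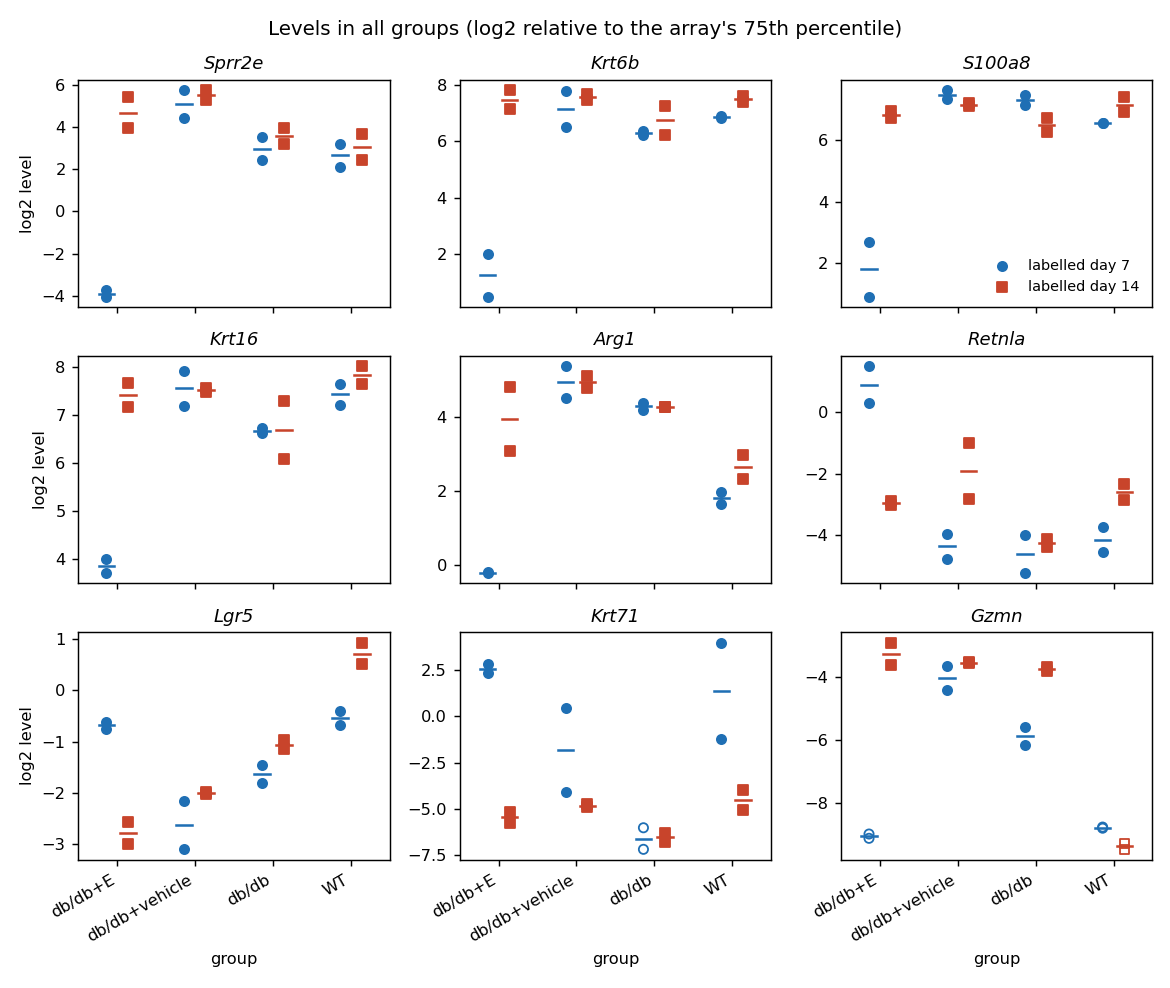
Log2 level of 9 genes on every array of the 4 groups (circles, labelled day 7; squares, labelled day 14; bars, means of 2 arrays; open symbols where not both arrays of a group were well above background). In Sprr2e, Krt6b, S100a8 and Krt16 the day 7 arrays of db/db+E lie below all others, and in Retnla they lie above all others.

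Over whole lists the db/db+E difference stood out in the Sprr and Lce3 genes, with a median of 7.16 against 0.63 in db/db+vehicle, 0.59 in db/db and 0.43 in WT, and 6, 6 and 7 of the 16 members were called in the tests against these groups, where 0.145%, 0.209% and 0.161% of all genes were called through 1 probe each. The activated keratinocyte list had medians of 2.04, 0.18, 0.01 and 0.40, with 4, 5 and 3 of 37 called. The inflammatory list had 2.19, 0.38, −0.09 and 1.53, with 0, 1 and 0 of 33 called, so that its median in WT was nearer to that of db/db+E than the medians of the other groups were. The neutrophil list had 2.03, −0.10, −0.89 and 0.45, with 0, 2 and 2 of 32 called. The major urinary proteins had −2.40, 0.98, 0.87 and −0.40, and none was called. No hair shaft, inner root sheath, melanocyte or adipocyte gene was called against any of these groups either. In the same order, the medians were −1.40, −0.50, −0.22 and −0.31 for the hair shaft. They were −1.77, −0.66, −0.15 and −1.26 for the inner root sheath. Melanocyte genes had −1.53, 0.23, −0.12 and −1.24, and adipocyte genes −1.26, −0.69, −0.45 and −0.40. The cell cycle list had medians of 0.62, 0.72, 0.64 and 0.84, and the barrier list had −1.22, −1.10, 0.03 and −1.01. The number of calls against the other groups was small and depended on the model, falling to 0 against db/db+vehicle and against db/db when only the 8 arrays compared were fitted, with 2443 and 2090 at the unadjusted threshold in limma.

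**Figure D5:**
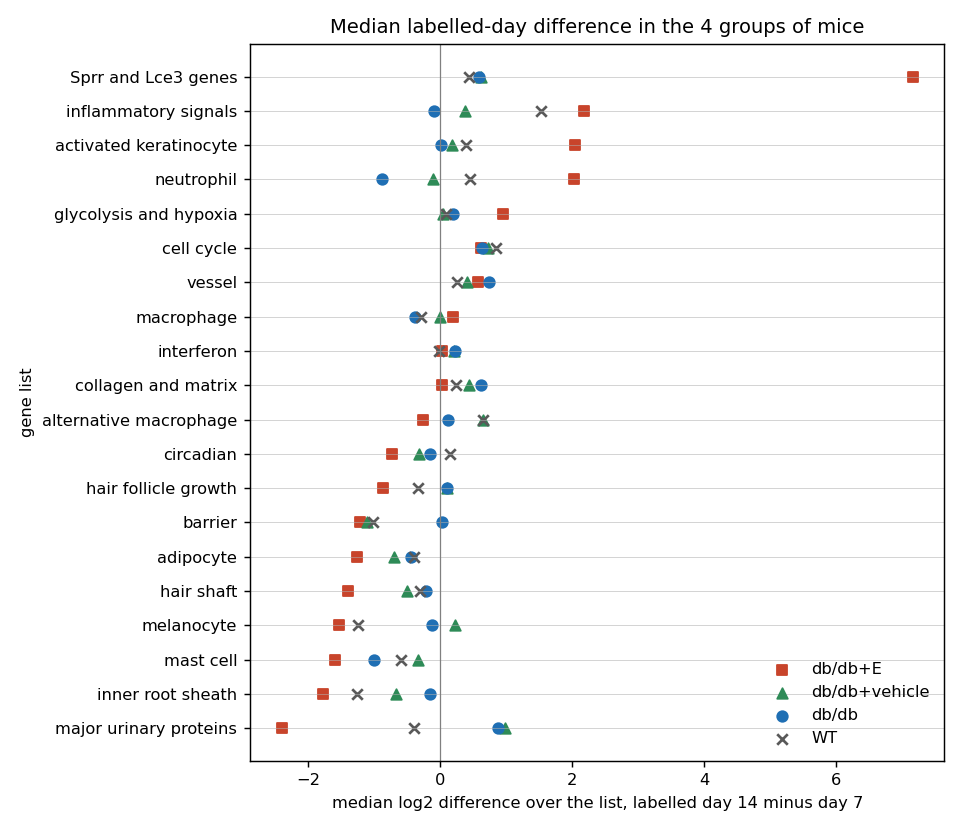
Median log2 difference between the labelled days (day 14 minus day 7) over each of 20 lists in the 4 groups of mice (squares, db/db+E; triangles, db/db+vehicle; circles, db/db; crosses, WT). The square of the Sprr and Lce3 list, at 7.16, lies far from the other groups, at 0.43 to 0.63, while the cell cycle medians lie between 0.62 and 0.84. Signals not well above background enter as measured, also for genes that passed the filter through 1 day of db/db+E alone.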

How the data were processed

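RNA of wounds with the surrounding skin was labelled with Cy3 and hybridised to 16 mouse arrays of 1 colour, with 2 arrays in each of 8 groups. The intensity of each spot, as deposited, is the processed signal of Agilent Feature Extraction 11.0.1.1 (named in the submitters' processing notes), with background subtracted and spatial trends removed by the authors and no scaling between arrays. The flags in these files, for outlier spots and for signals well above background, were also used as deposited. The series matrix holds a ratio made by the authors in GeneSpring. Set against the scanner signal it was a constant multiple within 0.1% for 99.4% or more of each array's probes, and that constant was the array's 75th percentile within 0.178%, so that its scale is linear and it is not centred by gene. It served as an alternative.

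Spots with an outlier flag were left out, spots of a probe were averaged, and the log2 of each array's 75th percentile over probes that are not controls was subtracted. Of 39429 probes 27427 were named through RefSeq (GRCm38.p6). Tested were probes flagged well above background on every array of 1 or more of the compared groups. A probe that passed through a single group was tested because it was high there, so that its direction is in part set by the filter. limma 3.58.1 in R 4.3.3 was fitted with 1 coefficient for each group over all 16 arrays, with 8 residual degrees of freedom, and p-values are two-sided and adjusted over all probes tested by Benjamini-Hochberg. The number of arrays limits the precision. With 2 arrays against 2, an exact permutation test could not go below 0.333 and was not used. The fit was tested on simulated data, and a gene that was not called may still differ.

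A probe not well above background on either array of a day has only a bound there, taken against the higher of its own signal and the lowest signal well above background on that array. A gene of a list was read through its brightest tested probe. The genes named were first the 12 of each direction with the largest difference among called probes well above background on all 4 arrays, and the 5 of each direction with the largest bound. In both choices only probes without overlap between the labelled days were taken. Also named were up to 4 members of each of 38 lists by p with its first 2 and any called against its median, and the 5 genes of each direction that differed most from db/db+vehicle. Others named beside them were chosen after their values were seen. The arrays, the gene lists and the tests were chosen with earlier results of these data known. Alternatives were normexp background correction (offset 50, on the median spot and background signals), quantile normalization, other treatments of dim probes, the deposited matrix, fits restricted to the arrays of a comparison, the slide as a block (random through statmod 1.5.0), a replicate block, array weights, and each array left out. Promoter motifs were searched in the 250 bases before each start in the RefSeq table.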

Additional observations from a re-analysis of the deposited data

Results flagged for a closer look

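The labelled-day difference of db/db+E was set against that of the other groups in the same model, and 32 probes differed from db/db+vehicle, 47 from db/db and 58 from WT. The named probes well above background on all 8 arrays with the largest differences from db/db+vehicle rose more in db/db+E for Sprr2g (by 8.58 on the log2 scale), Sprr2e (8.12), Krt6b (5.81), S100a8 (5.34) and Krt16 (3.60). They fell more, or rose less, for Retnla (−6.27), Scd3 (−4.96), Tnni3k (−3.96), Lgr5 (−2.74) and Gfra1 (−2.60). The second probe of Krt6b gave 3.38 and was not called. For Scd3, a desaturase of skin lipids, the 3 probes fell by 1.59 to 2.60 within db/db+E. Groups of 2 arrays were too small for a check of single outlying arrays.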

How the results depend on the processing

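The 2600 probes called between the labelled days in db/db+E became 1229 with normexp background correction, 1684 with quantile normalization and 4161 at the unadjusted threshold. Leaving out 1 array gave 580 to 2404, with 709 without day 7 replicate 1, 580 without day 7 replicate 2 and 967 without day 14 replicate 1, and the lone array was then assumed to vary like the other groups. Other settings gave 1925 to 2980. Same-numbered db/db+E arrays share only a number, and with a replicate block 2373 probes were called, and 1, 7 and 37 in the tests against db/db+vehicle, db/db and WT. The calls in these 3 tests, 32, 47 and 58, were few and unstable: 13, 12 and 4 with normexp, 2, 9 and 32 with no filter on dim probes, 3, 29 and 12 with probes well above background on every array, 0, 0 and 2 with only the arrays compared (2443, 2090 and 2269 unadjusted), and 2237, 1942 and 2355 at the unadjusted threshold. A floor on dim signals left 4 against db/db+vehicle, a random slide block 3 and array weights 80. Array weights left 19 against WT, and a fixed slide block left 0 against db/db (2481 unadjusted) and 1 against WT. Without 1 array the ranges were 7 to 149, 8 to 224 and 1 to 542, with the lowest values without db/db+vehicle day 14 replicate 2, db/db+E day 7 replicate 2 and WT day 14 replicate 2, and the highest without db/db+E day 14 replicate 2, db/db day 7 replicate 1 and WT day 14 replicate 1. The cause of these changes was not tested. Of 137 called genes picked by the naming rule none reversed under any alternative run, 91 lost the call without 1 array and 67 under another setting. The median changed sign under some setting in 12 of 38 lists, among them the barrier, basal keratinocyte, interferon, collagen and both muscle lists. Dim signals limit the fold changes near background: genes not well above it on either array of a day are given as bounds.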
